A study of Zea mays with 12 samples.

Results

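The genes described here encode proteins with the pectin methylesterase and invertase inhibitor domain of plants. They were taken from the deposited maize gene tables as the rows whose description lists the Pfam domain PF04043 and not PF01095, the catalytic domain of pectin methylesterases. This rule uses no expression value, and it found 56 of 45246 genes and loci. Synergid cells of the inbred line B73 were collected before pollination (SC, 0 hours after pollination, HAP). Persistent synergid cells, which are the synergids that remain after the other one of each embryo sac has received the pollen tube, were collected at 12 HAP (pSC12), 18 HAP (pSC18) and 24 HAP (pSC24). Every group had 3 libraries of poly-A RNA, each from 25 to 28 cells that were cut out of enzyme-treated ovule slices with a glass needle and whose cDNA was amplified before sequencing. The study asked how the transcriptome of the persistent synergid changes up to its elimination. The plants carried no transgene, and the labels list no treatment other than the time after pollination. Amounts of RNA per cell were not measured, so every level below is relative to the other RNA of its library.

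Pectin is laid down in the wall in a methylesterified form, and pectin methylesterases (PMEs) remove the methyl groups, after which calcium can cross-link the chains and other enzymes can cut them. Pectin methylesterase inhibitors (PMEIs) are small secreted proteins that bind these enzymes and keep pectin methylesterified, while relatives with the same fold inhibit cell wall or vacuolar invertases, the enzymes that split sucrose. Synergids secrete many proteins into the filiform apparatus, the thickened wall through which the pollen tube enters, and PMEIs are known to destabilise the growing pollen tube tip in maize. The domain alone does not tell a methylesterase inhibitor from an invertase inhibitor.

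The 56 genes lie on 9 chromosomes (none on chromosome 9), with 9 genes on chromosome 3 and 8 on chromosome 5 at the upper end. Their length in the deposited tables ran from 453 to 2338 bases with a median of 1026 bases, against a median of 1344 bases over the whole table. A protein annotation by similarity was given for 15 of them, and 24 lay within 50000 bases of another of the 56. The 24 include genes that overlap each other on opposite strands, such as Zm00001eb227740 and Zm00001eb227750. Most of the genes had few or no counts in these cells. No count was recorded for 20 of them in any of the 12 libraries, and another 13 had counts but failed the filter on low counts, with at most 30 counts and 1.27 FPKM (fragments counted per unit of gene length and of library size) in any library. Some of the 20, such as Zm00001eb063550 and Zm00001eb063560, overlap another annotated gene on the opposite strand. How reads in such overlaps were counted is not given, so a lack of counts there does not show a lack of transcript. The remaining 23 genes were tested. A stage mean above 1 FPKM was seen for 17 genes in SC, 17 in pSC12, then 17 in pSC18 and 20 in pSC24. The 14 genes with a stage mean of at least 5 FPKM or with a call are described one by one, and the other 9 tested genes had stage means between 0 and 4.98 FPKM with no adjusted p below 0.05 in the edgeR fit. Of these 9, Zm00001eb294540, Zm00001eb135460 and Zm00001eb196090 were called in alternative fits, as given below.

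Library totals lay between 15435736 and 26539602 counts on genes. Counts were compared with edgeR's quasi-likelihood test across 21143 genes, with p-values adjusted by the Benjamini-Hochberg method, and a gene was called where the adjusted p was under 0.05 and the fold over 2 (a log2 fold change over 1 in size). The synergid gene ZmES4 was at 12036, 6154, 9071 and 10922 FPKM in SC, pSC12, pSC18 and pSC24 on average, which fits the labelled cell type. The other synergid genes looked at did not move alike. From SC to pSC24, mean ZmMYB98 fell from 1120 to 97.9 FPKM and mean ZmLLG3 rose from 6.54 to 67.5 FPKM. Mean ZmFERL1 was 28.9 FPKM in SC and 33.2 FPKM in pSC24. The transcripts of 2 genes similar to the egg cell gene EC1 summed to 172 to 428 FPKM in SC, 47.2 to 67.9 in pSC12, then 67.5 to 199 in pSC18 and 42.8 to 119 in pSC24. The 44 genes described as pollen-specific or exopolygalacturonase summed to 26.5 to 68.8 FPKM over all 12 libraries, and the 654 genes described as ribosomal proteins to 9533 to 13632 FPKM. The study's list of read statistics separates 5 libraries with a higher share of mapped reads (pSC12 replicates 1 to 3 and pSC24 replicates 2 and 3) from the other 7. SC and pSC18 lie wholly in the lower set and pSC12 wholly in the higher one, so stage and set cannot be told apart for pSC12. A fit with the set as a term estimates it only from pSC24 replicate 1 against pSC24 replicates 2 and 3, so its values rest on that 1 library, and a call missed in it is not shown to be due to the set. They are given with this limit beside the calls that they touch.

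Among the most abundant transcripts of every stage were those of 4 inhibitor genes that form neighbouring pairs on chromosomes 7 and 3. The study names them ZmSC2 (Zm00001eb304190), ZmSC3 (Zm00001eb304180), ZmSC6 (Zm00001eb126440) and ZmSC9 (Zm00001eb126450). By mean FPKM they ranked 2, 3, 6 and 9 of all genes in SC and 3, 2, 6 and 8 in pSC24. Together they held 8.46% to 9.69% of all counts in SC, 6.6% to 6.83% in pSC12, then 7.47% to 8.09% in pSC18 and 8.22% to 9.6% in pSC24. They made up between 98.1% and 99.1% of the summed FPKM of all 56 inhibitor-domain genes in each library. None of the 4 carries a protein annotation by similarity in the tables, so only the domain assigns them to this family.

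Zm00001eb304190 (chromosome 7, 24982642 to 24983205, plus strand, Zm-B73-REFERENCE-NAM-5.0) had 44159, 43457 and 50181 FPKM in the SC libraries, 27111, 26120 and 26318 in pSC12, 34920, 33364 and 31091 in pSC18, followed by 37527, 31425 and 41145 in pSC24. Every library after pollination was below every SC library, and the pSC12 libraries were the lowest and the closest to each other. The test gave a log2 fold change of -0.79 (SE 0.10, adjusted p = 0.00119, edgeR) for pSC12 against SC, -0.47 (SE 0.10, adjusted p = 0.00982) for pSC18 against SC and -0.34 (SE 0.10, adjusted p = 0.0194) for pSC24 against SC. The last of these missed the adjusted p threshold with library totals as the scaling (-0.11, adjusted p = 0.316), with the 6 libraries alone (0.0694), with the mapping-set term (0.185), and without SC replicate 3 (0.108) or pSC24 replicate 2 (0.0723).

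Zm00001eb304180, its upstream neighbour (chromosome 7, 24903934 to 24904646, plus strand), had 39390, 37759 and 43099 FPKM in SC, 23487, 22574 and 23913 in pSC12, 32044, 32063 and 27369 in pSC18, followed by 35477, 33236 and 42881 in pSC24. The pSC12 and pSC18 libraries lay below all SC libraries, whereas the pSC24 libraries overlapped with SC. The log2 fold changes against SC were -0.77 in pSC12 (SE 0.10, adjusted p = 0.00141, edgeR), -0.39 in pSC18 (SE 0.10, adjusted p = 0.0266) and -0.12 in pSC24 (SE 0.10, adjusted p = 0.404). Scaled to library totals alone, the pSC24 value changed sign to 0.10 (adjusted p = 0.35), in a scaling that moves the median gene to 0.28.

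Zm00001eb126440 (chromosome 3, 29344424 to 29345224, minus strand) had 31271, 29027 and 32806 FPKM in SC, 17657, 17472 and 18243 in pSC12, 23401, 26316 and 22762 in pSC18, followed by 24946, 25103 and 30518 in pSC24. Its partner Zm00001eb126450 (chromosome 3, 29349573 to 29350423, minus strand) had 24228, 25156 and 27202 FPKM in SC, 18201, 17503 and 17524 in pSC12, 18626, 19014 and 17757 in pSC18, followed by 20155, 18495 and 23446 in pSC24. Both had their lowest mean at pSC12, where no library reached the SC range, and Zm00001eb126450 stayed below SC in all 9 libraries after pollination. For pSC12 against SC, Zm00001eb126440 had a log2 fold change of -0.80 (SE 0.09, adjusted p = 0.000839, edgeR) and Zm00001eb126450 one of -0.52 (SE 0.08, adjusted p = 0.0052). For pSC24 against SC the values were -0.22 (SE 0.09, adjusted p = 0.0818, libraries overlapping, passing at -0.32 and 0.0122 without pSC24 replicate 3) for Zm00001eb126440 and -0.32 (SE 0.08, adjusted p = 0.0142) for Zm00001eb126450. The value of Zm00001eb126450 missed the adjusted p threshold with library totals as the scaling (-0.09, adjusted p = 0.302), with the 6 libraries alone (0.0625), with the mapping-set term (0.0792), and without SC replicate 3 (0.0752) or pSC24 replicate 2 (0.0598).

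All 4 abundant genes thus passed the adjusted p threshold at pSC12, but with folds of 1.43 to 1.74, under the fold required for a call. Over all tested genes the median was -0.01 in this comparison. With library totals as the only scaling that median moved to 0.27 and the 4 genes came to -0.50, -0.49, -0.51 and -0.23, in the order in which they are described above. With a term for the mapping set the 4 fold changes were -0.72, -0.86, -0.94 and -0.56, with adjusted p of 0.110, 0.0827, 0.0425 and 0.142. Between pSC18 and SC, which lie within one mapping set, all 4 again passed the adjusted p threshold, with -0.36 (SE 0.09, adjusted p = 0.0253, edgeR) for Zm00001eb126440 and -0.47 (SE 0.08, adjusted p = 0.00542) for Zm00001eb126450. Zm00001eb304180 and Zm00001eb126440 missed it in this comparison with library totals (adjusted p = 0.115 and 0.168), with no filter (0.0508 and 0.0603), and without SC replicate 1 (0.0587 and 0.0664), SC replicate 3 (0.0956 and 0.0873) or pSC18 replicate 3 (0.0833 and 0.0772), and Zm00001eb126440 also without pSC18 replicate 1 (0.0657). None of the 4 passed it between pSC18 and pSC12 (adjusted p 0.0977 to 0.875) or between pSC24 and pSC18 (adjusted p 0.083 to 0.398) in the 12-library edgeR fit. In pSC18 against pSC12, Zm00001eb126440 and Zm00001eb304180 did pass it with DESeq2 (adjusted p = 0.00084 and 0.0154) and with adjustment over all 5 comparisons (0.0075 and 0.0261), and in pSC24 against pSC18 Zm00001eb304180 passed with library totals (0.0202) and DESeq2 (0.0393). ZmES4 and the EC1-like genes had their lowest levels at pSC12 as well, ZmES4 with a log2 fold change of -0.96 against SC (SE 0.12, adjusted p = 0.00122, edgeR) that became -1.14 (adjusted p = 0.0574) with the mapping-set term, and their part in the result was not tested.

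**Figure D1:**
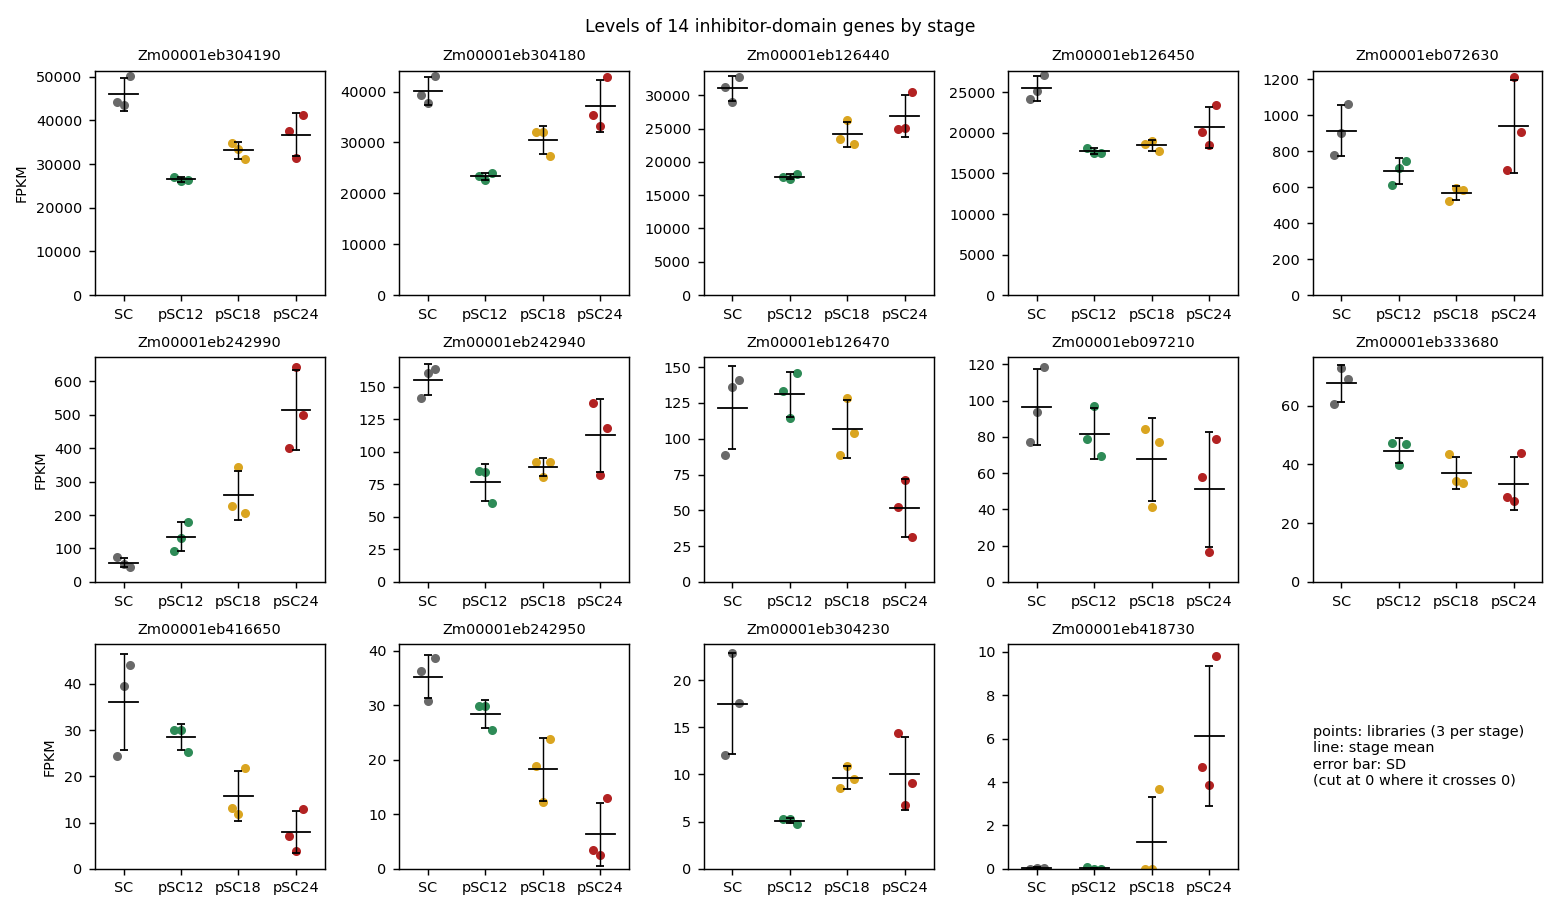
FPKM of the 14 individually described inhibitor-domain genes (vertical axes, linear, each from 0) in SC, pSC12, pSC18 and pSC24 (horizontal axes). Points are libraries, lines are stage means and error bars are SD (n = 3). The 4 genes of the upper left panels stand at 17472 to 50181 FPKM in every library and dip at pSC12, Zm00001eb242990 climbs over the 4 stages, and Zm00001eb416650 and Zm00001eb242950 decline.

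The ratio within a pair is given as a description. FPKM of Zm00001eb304180 over that of Zm00001eb304190 was 0.892, 0.869 and 0.859 in SC, 0.866, 0.864 and 0.909 in pSC12, 0.918, 0.961 and 0.88 in pSC18, followed by 0.945, 1.06 and 1.04 in pSC24. FPKM of Zm00001eb126440 over that of Zm00001eb126450 was 1.29, 1.15 and 1.21 in SC, 0.97, 0.998 and 1.04 in pSC12, 1.26, 1.38 and 1.28 in pSC18, followed by 1.24, 1.36 and 1.30 in pSC24. In the chromosome 7 pair the ratio was higher in every pSC24 library than in every SC library, and in the chromosome 3 pair it was lower in every pSC12 library than in every SC or pSC18 library. The differences of the mean log2 ratio were 0.22 for pSC24 minus SC (pooled SD 0.07), -0.28 for pSC12 minus SC (pooled SD 0.07) and 0.38 for pSC18 minus pSC12 (pooled SD 0.06). Each has an exact two-sided permutation p of 0.1, the smallest that 3 libraries against 3 allow, and 10 such comparisons were made, so none can pass a threshold of 0.05 and a change of the ratio is not shown. How the counting treated reads that map to more than 1 gene is not given in the sources used here, so reads could be split between partners where their sequences are alike, and the sequences were not compared here.

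Each pair has a further inhibitor-domain gene close by that is expressed at a far lower level. On chromosome 7 the gap within the pair is 77995 bases with no annotated gene between, and Zm00001eb304230 follows after 55024 bases and 3 genes. On chromosome 3 the pair is 4348 bases apart, and Zm00001eb126470 follows after 127531 bases and 2 genes. Another cluster, on chromosome 5, holds Zm00001eb242940, Zm00001eb242950 after 1328 bases, and Zm00001eb242990 after a further 11233 bases and 3 genes. All 3 genes of the chromosome 5 cluster lie on the plus strand and are annotated by similarity to PECTINESTERASE INHIBITOR 8 of rice, and the only other gene with this annotation, Zm00001eb241210, lies elsewhere on chromosome 5 and did not pass the filter. No individually described gene overlaps another annotated gene.

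**Figure D2:**
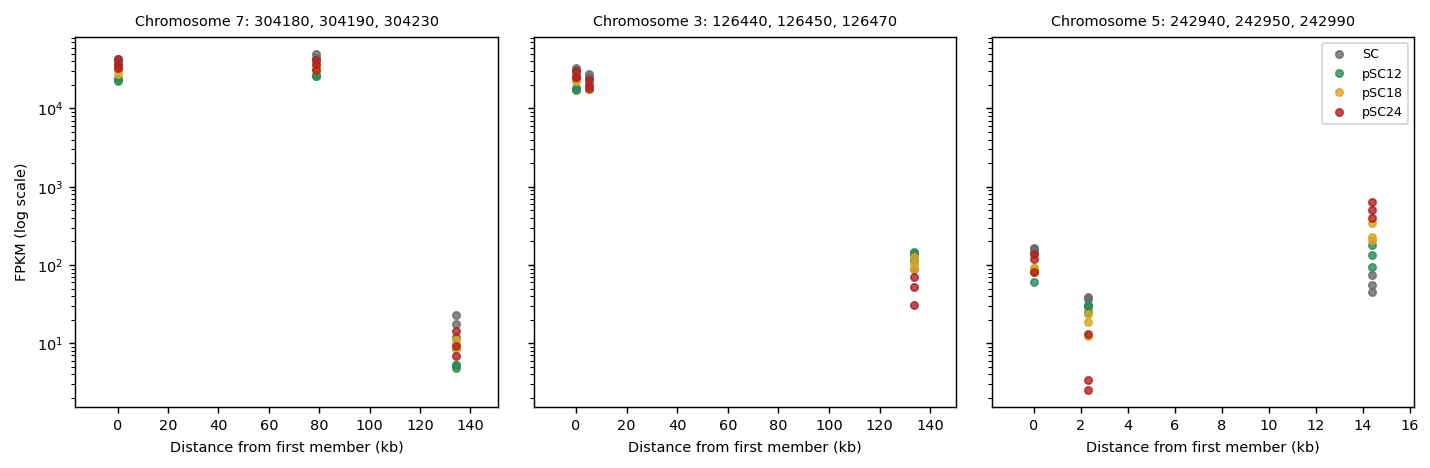
FPKM (log axis) of the 9 inhibitor-domain genes in the clusters on chromosomes 7, 3 and 5 against the distance of their starts from the first gene of the cluster in kb. Points are the 3 libraries of each stage, and panel titles give the end of each gene identifier. The pairs on chromosomes 7 and 3 lie at 17472 FPKM or more and their distant neighbours between 4.79 and 146 FPKM, while on chromosome 5 the stages run in opposite order in the second and the last gene.

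The inhibitor gene that rose most clearly was Zm00001eb242990 (chromosome 5, 173166986 to 173167819), similar to rice PECTINESTERASE INHIBITOR 8. It had 73.7, 55.0 and 45.5 FPKM in SC, 93.3, 133 and 180 in pSC12, 226, 343 and 206 in pSC18, followed by 402, 642 and 499 in pSC24. Each stage lay wholly above the one before it, and the gene ranked 1254, 337, 154 and 76 of all genes by mean FPKM at the successive stages. In the fit pSC24 was 8.79-fold higher than SC (log2 fold change 3.14, SE 0.29, adjusted p = 1.32e-05, edgeR) and pSC18 was 4.46-fold higher (2.16, SE 0.28, adjusted p = 0.00116). Both calls held in each alternative fit and without any 1 of the 12 libraries. The gain at pSC12 was called with a log2 fold change of 1.23 (SE 0.27, adjusted p = 0.0225), but with the mapping-set term it was 0.73 (adjusted p = 0.541), and it was lost without SC replicate 2 (adjusted p = 0.104), SC replicate 3 (0.115), pSC12 replicate 2 (0.0648) or pSC12 replicate 3 (0.0777). For pSC24 against pSC18 the log2 fold change was 0.98 (SE 0.27, adjusted p = 0.0292), just under the fold required, and the adjusted p missed its threshold with the mapping-set term (0.403) and without pSC18 replicate 1 (0.0984), pSC18 replicate 3 (0.0982), pSC24 replicate 2 (0.11) or pSC24 replicate 3 (0.0579). It was called there with library totals (1.01, adjusted p = 0.0277), with the 6 libraries alone (1.01, 0.0413), and without any 1 SC library, pSC18 replicate 2 or pSC24 replicate 1 (1.01 to 1.29, adjusted p 0.017 to 0.0419). For pSC18 against pSC12 the value was 0.93 (SE 0.27, adjusted p = 0.185, edgeR), which passed the adjusted p threshold with DESeq2 (0.0215) and with adjustment over all 5 comparisons (0.0436).

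The values of its neighbours follow. Zm00001eb242950 (chromosome 5, 173154885 to 173155752) had 36.3, 30.8 and 38.5 FPKM in SC, 29.9, 29.7 and 25.4 in pSC12, 18.8, 12.3 and 23.7 in pSC18, followed by 3.38, 2.55 and 13.0 in pSC24. It fell in pSC24 against SC with a log2 fold change of -2.50 (SE 0.49, adjusted p = 0.00223, edgeR), a 5.66-fold lower level, and this call held in each alternative fit and without any 1 library. Against pSC18 the pSC24 value was -1.55 (SE 0.48, adjusted p = 0.0478); the libraries of these stages overlap, pSC24 replicate 3 being the high one, and the call was lost in 4 of the alternative fits and in 10 of the 12 fits without 1 library. FPKM of Zm00001eb242990 was 119, 252 and 38.5 times that of Zm00001eb242950 in pSC24, and 2.03, 1.78 and 1.18 times in SC.

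Zm00001eb242940 (chromosome 5, 173152590 to 173153556), the first gene of this cluster, had 142, 160 and 163 FPKM in SC, 84.9, 84.1 and 60.2 in pSC12, 92.1, 80.4 and 91.9 in pSC18, followed by 137, 82.1 and 118 in pSC24. It was below SC in every later library, and its mean was lowest in pSC12. The pSC12 level was called lower (log2 fold change -1.01, SE 0.19, adjusted p = 0.00942, edgeR), a fold just past the threshold that fell short of it with library totals as the scaling (-0.73) and without SC replicate 3 (-0.99) or pSC12 replicate 3 (-0.87). With the mapping-set term it was -0.55 (adjusted p = 0.473). Against SC, pSC18 was at -0.82 (SE 0.19, adjusted p = 0.0174, missed without SC replicate 2, SC replicate 3 or pSC18 replicate 2 at 0.0559, 0.0601 and 0.0586) and pSC24 at -0.47 (SE 0.18, adjusted p = 0.075, passing at 0.0279 without pSC24 replicate 1).

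The more distant neighbours of the abundant pairs were also described library by library. Zm00001eb126470 (chromosome 3, 29477955 to 29478723) had 88.5, 136 and 141 FPKM in SC, 133, 114 and 146 in pSC12, 88.3, 128 and 104 in pSC18, followed by 52.2, 71.3 and 31.1 in pSC24. Its levels overlapped among the first 3 stages, and all pSC24 libraries lay below all others. It fell in pSC24 against SC (log2 fold change -1.25, SE 0.27, adjusted p = 0.00422, edgeR) and against pSC18 (-1.07, SE 0.27, adjusted p = 0.0203). The call against SC was lost with the mapping-set term (-1.23, adjusted p = 0.077) and without pSC24 replicate 3 (-0.99), and the call against pSC18 with that term (-1.04, adjusted p = 0.211), with the 6 libraries alone (adjusted p = 0.0753), and without pSC18 replicate 2 (-0.86) or pSC24 replicate 3 (-0.80).

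Zm00001eb304230 (chromosome 7, 25038230 to 25039176) had 12.1, 22.8 and 17.6 FPKM in SC, 5.23, 5.23 and 4.79 in pSC12, 8.53, 10.9 and 9.51 in pSC18, followed by 14.3, 6.78 and 9.11 in pSC24. The pSC12 libraries were the lowest and nearly equal. It fell 3.42-fold in pSC12 against SC (log2 fold change -1.78, SE 0.32, adjusted p = 0.0084, edgeR), and with the mapping-set term it was -0.91 (adjusted p = 0.461). Against SC, pSC18 was at -0.86 (SE 0.31, adjusted p = 0.11) and pSC24 at -0.81 (SE 0.31, adjusted p = 0.0713), which passed without pSC24 replicate 1 (-1.16, adjusted p = 0.0208).

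Outside the clusters, Zm00001eb072630 (chromosome 2, 14821653 to 14825373) was the fifth most abundant of the 56 genes, with 781, 901 and 1063 FPKM in SC, 610, 708 and 749 in pSC12, 524, 597 and 584 in pSC18, followed by 699, 1215 and 905 in pSC24. It was lowest at pSC18, and its pSC24 libraries overlapped with SC. The log2 fold change was -0.69 for pSC18 against SC (SE 0.18, adjusted p = 0.0302, edgeR) and 0.71 for pSC24 against pSC18 (SE 0.18, adjusted p = 0.0178), and the second became 0.29 (adjusted p = 0.497) with the mapping-set term. The first missed the adjusted p threshold with library totals (0.0938) and without SC replicate 2, SC replicate 3 or any of the 3 pSC18 libraries (0.0597 to 0.125), and the second with the 6 libraries alone (0.0529) and without pSC18 replicate 1 (0.0569) or pSC24 replicate 2 (0.0695). For pSC24 against SC it was 0.02 (SE 0.17, adjusted p = 0.939), and its sign turned to -0.39 with the mapping-set term, to -0.05 without SC replicate 1 and to -0.21 without pSC24 replicate 2.

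Zm00001eb416650, Zm00001eb333680 and Zm00001eb097210 had lower means in pSC24 than in SC. Zm00001eb416650 (chromosome 10, 84341903 to 84342468) had 24.3, 39.5 and 44.2 FPKM in SC, 30.1, 30.1 and 25.2 in pSC12, 13.3, 12.0 and 21.9 in pSC18, followed by 7.18, 3.91 and 12.8 in pSC24. Its pSC24 libraries lay below all SC and pSC12 libraries. It fell 4.57-fold in pSC24 against SC (log2 fold change -2.19, SE 0.40, adjusted p = 0.0015, edgeR), also in each alternative fit and without any 1 library. For pSC18 against SC it was not called (-1.20, SE 0.39, adjusted p = 0.078), but it was with DESeq2 (adjusted p = 0.0288), with the 6 libraries alone (0.0408), and without pSC24 replicate 2 (0.0405) or pSC24 replicate 3 (0.0366).

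Zm00001eb333680 (chromosome 8, 6070902 to 6072024) had 60.6, 72.9 and 69.2 FPKM in SC, 47.3, 39.7 and 46.9 in pSC12, 43.4, 34.2 and 33.7 in pSC18, followed by 28.8, 27.6 and 44.0 in pSC24. All 9 later libraries were below SC. It fell 2.04-fold in pSC24 against SC (log2 fold change -1.03, SE 0.19, adjusted p = 0.00133, edgeR). The fold lay so near its threshold that the call was lost with library totals as the scaling (-0.81) and without SC replicate 2 (-0.95), SC replicate 3 (-0.99), pSC24 replicate 1 (-0.94) or pSC24 replicate 2 (-0.91), while the adjusted p stayed at or below 0.0116 in these fits and with the mapping-set term.

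Zm00001eb097210 (chromosome 2, 175505586 to 175506152) had 77.3, 93.6 and 119 FPKM in SC, 79.0, 97.0 and 69.3 in pSC12, 84.1, 41.2 and 77.2 in pSC18, followed by 57.9, 16.5 and 78.8 in pSC24. Its pSC24 libraries spread widely and overlapped with SC. It was not called for pSC24 against SC (log2 fold change -0.93, SE 0.43, adjusted p = 0.132, edgeR), but it passed without pSC24 replicate 3 (-1.39, adjusted p = 0.0445).

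Zm00001eb418730 was close to undetected before pollination. This gene (chromosome 10, 96402208 to 96403321) had 116, 118 and 266 counts in the pSC24 libraries, against 0, 1 and 1 counts in the SC libraries. In pSC12 it had 2, 0 and 0 counts, and in pSC18 it had 0, 0 and 90 counts, so that 1 pSC18 library stood with the last stage. Its mean was 6.12 FPKM in pSC24, and the 500 counts of pSC24 against the 2 of SC gave a ratio of 171 after scaling, with an exact 95% interval of 47.1 to 1416 that covers counting error only. It was called higher in pSC24 than in SC (adjusted p = 0.017, edgeR), a call lost with the mapping-set term (adjusted p = 0.0637) and without SC replicate 1, 2 or 3 (adjusted p 0.0582 to 0.0655). Its annotation by similarity is Pectinesterase 3 of common bean, an enzyme that carries an inhibitor-like domain before the catalytic one, but the deposited domain list of the maize gene holds no catalytic domain. A further gene, Zm00001eb294540, singled out after its values were seen, reached a pSC18 mean of 4.98 FPKM through the same library, pSC18 replicate 3, which had 264 counts beside 3 and 15 in the other 2.

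**Figure D3:**
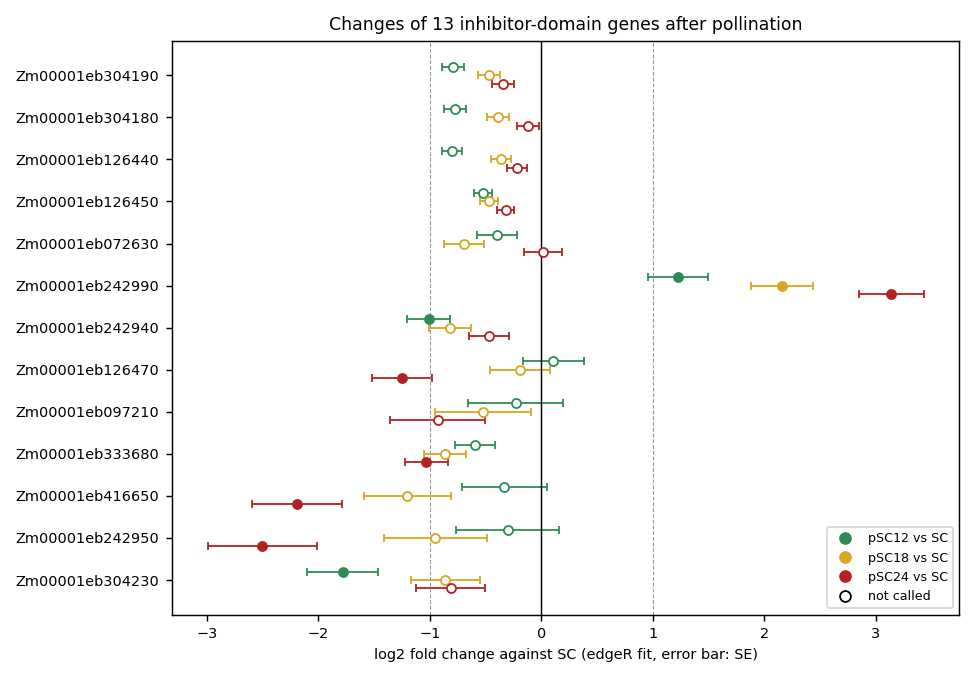
Log2 fold changes against SC in pSC12, pSC18 and pSC24 (horizontal axis, edgeR, error bars are SE) of 13 inhibitor-domain genes (rows). Filled points were called (adjusted p under 0.05 and beyond the dashed lines at -1 and 1) and open points were not. Zm00001eb242990 alone lies beyond 1 at all 3 times, and the 4 abundant genes at the top lie between -0.80 and -0.12. Zm00001eb418730 is left out because its fitted fold rests on 0 to 1 counts in SC.

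Counted over the 23 tested genes, the family gave 12 calls for 8 genes in 5 comparisons. For pSC12 against SC, 1 was called higher, where 1.62% of all tested genes were, and 2 lower, where 1.18% of all were. With the adjusted p alone 6 were lower, against 2.64% of all genes, and in 10 every pSC12 library was below every SC library, which held for 16.0% of all genes. The median log2 fold change of the 23 genes was -0.59, against -0.01 for all genes. None was called between pSC18 and pSC12, where 0.0189% of all genes were called higher and 0.00473% lower. In that comparison 11 of the 23 had an unadjusted p under 0.05 in either direction (12.6% of all genes, edgeR). They include the scarce genes Zm00001eb418730, Zm00001eb294540, Zm00001eb043900 and Zm00001eb260280. Zm00001eb043900 had 19, 0 and 0 counts in pSC18 and Zm00001eb260280 had 2, 0 and 23, both with 0 counts in every pSC12 library. The share is therefore not read as a change of the family. DESeq2 called 1 gene higher, Zm00001eb294540, whose pSC18 libraries had 3, 15 and 264 counts, so that this call leans on replicate 3.

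For pSC18 against SC, 1 gene was called higher (2.71% of all genes) and 0 lower (1.6% of all genes) by edgeR, and DESeq2 called 1 lower. In either direction 11 had an unadjusted p under 0.05 in edgeR (23.8% of all genes), among them Zm00001eb418730 with 0, 0 and 90 counts in pSC18. With the adjusted p alone 7 were lower (4.1% of all genes), and in 12 all pSC18 libraries lay below all SC libraries (16.2% of all genes). The median was -0.52, against 0.05 for all genes. For pSC24 against pSC18, 0 were called higher by edgeR (4.82% of all genes) and 2 were called lower (3.26% of all genes). In either direction 7 had an unadjusted p under 0.05 in edgeR (28.4% of all genes). DESeq2 called 1 higher, the scarce Zm00001eb135460, with means of 3.69 FPKM in pSC24 and 0.519 FPKM in pSC18. The median was 0.16, against -0.01 for all genes. For pSC24 against SC, 2 were called higher (10.3% of all genes) and 4 lower (7.57% of all genes), with a median of -0.27, against 0.05 for all genes. The counts are small, and genes within a cluster may share reads.

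Summed over all 56 genes, inhibitor transcripts came to 144095 ± 9598 FPKM in SC, 86606 ± 1464 in pSC12, then 107428 ± 6368 in pSC18 and 123201 ± 15033 in pSC24 (SD, n = 3 each). Relative to SC these sums were 0.601 at pSC12, 0.746 at pSC18 and 0.855 at pSC24. As a share of all counts the 56 genes held 8.6% to 9.85% in SC, 6.74% to 6.97% in pSC12, then 7.59% to 8.22% in pSC18 and 8.45% to 9.77% in pSC24, so on this scale pSC24 was at 0.993 of SC. The 52 genes other than the abundant pairs summed to 1750 ± 332 FPKM in pSC24 and 1517 ± 201 FPKM in SC (SD, n = 3 each), and they include Zm00001eb242990.

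**Figure D4:**
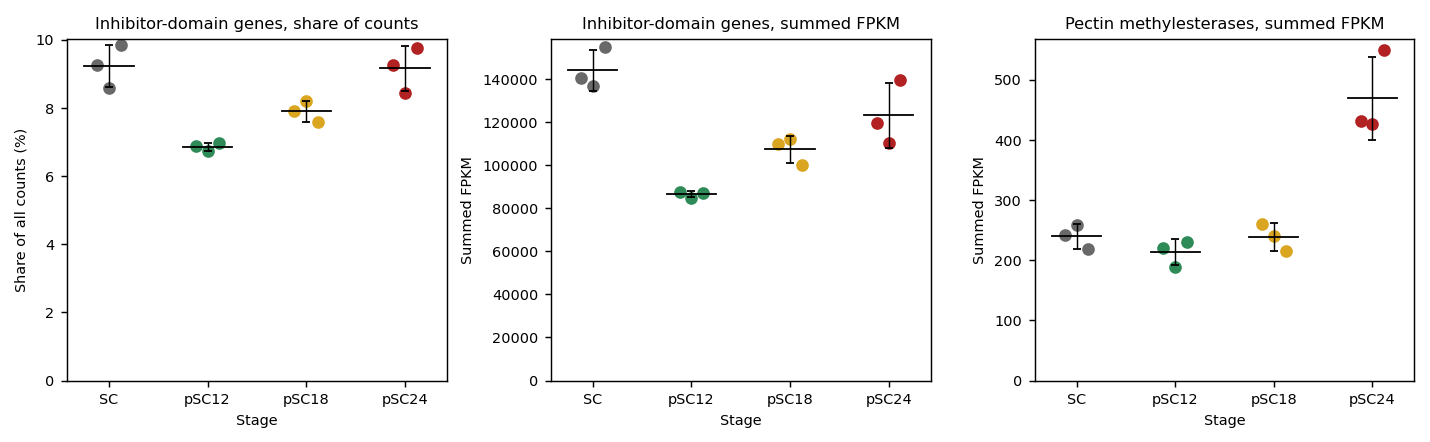
Share of all counts held by the 56 inhibitor-domain genes (left, %), their summed FPKM (middle) and the summed FPKM of 50 pectin methylesterases (right) in SC, pSC12, pSC18 and pSC24. Points are libraries, lines are means and error bars are SD (n = 3), with all axes from 0. Inhibitor transcripts are lowest at pSC12 (84922 to 87583 FPKM), and methylesterase transcripts are highest at pSC24 (427 to 549 FPKM).

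Transcripts of the enzymes that PMEIs act on were far less abundant in these cells, and amounts of protein were not measured here. The 50 genes with the PME catalytic domain summed to 240 ± 20.3 FPKM in SC, 213 ± 21.4 in pSC12, then 239 ± 22.8 in pSC18 and 469 ± 69.4 in pSC24 (SD, n = 3 each). The inhibitor sum was 529 to 709 times this sum in SC, 379 to 449 times in pSC12, then 422 to 466 times in pSC18 and 254 to 277 times in pSC24, with no overlap between pSC24 and any other stage. Among the 14 PMEs tested, 3 were called higher and 1 lower in pSC24 against SC, where 10.3% of all tested genes were called higher and 7.57% lower.

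The 23 PMEs that carry an inhibitor domain of their own, a form whose inhibitor-like part is cut off before the enzyme acts, summed to 247 ± 52.4 FPKM in pSC24 and 9.63 ± 3.72 FPKM in SC, while the 27 without it summed to 222 ± 29.0 FPKM in pSC24 and 230 ± 23.9 FPKM in SC (SD, n = 3 each). Most of the pSC24 sum of the PMEs with an inhibitor domain came from Zm00001eb333580, similar to PECTINESTERASE 22 of Arabidopsis, which averaged 9.39 FPKM in SC, 3.95 in pSC12, then 15.0 in pSC18 and 239 in pSC24. Its pSC12 libraries had 1.61, 0.970 and 9.26 FPKM and its pSC18 libraries 3.90, 36.1 and 4.97, so both means lean on 1 library. The gene rose in pSC24 against SC (log2 fold change 4.66, SE 0.95, adjusted p = 0.00294, edgeR) and against pSC18 (3.98, SE 0.92, adjusted p = 0.0127). With the mapping-set term these were 4.61 (adjusted p = 0.0173) and 3.93 (adjusted p = 0.07). The highest PME before pollination, Zm00001eb340380, averaged 113 FPKM in pSC24 and 119 FPKM in SC (adjusted p = 0.694), and Zm00001eb327190, similar to Arabidopsis QUARTET1, which pollen grains need to separate, fell to 22.7 FPKM in pSC24, against 46.6 FPKM in SC (log2 fold change -1.05, adjusted p = 0.000863), a value of -0.96 (adjusted p = 0.0341) with the mapping-set term.

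Transcripts of invertases, the other class of enzyme that proteins of this family bind, were scarce as well. The 12 genes of glycoside hydrolase family 32 summed to 73.2 ± 26.5 FPKM in pSC24 and 37.2 ± 3.83 FPKM in SC (SD, n = 3 each), and of 6 tested 2 were called higher (10.3% of all genes). Zm00001eb427460, annotated by similarity to the maize soluble invertase gene IVR1, averaged 17.6 FPKM in pSC24 and 0.904 FPKM in SC (log2 fold change 4.28, SE 0.84, adjusted p = 0.00238, edgeR; 4.04, adjusted p = 0.0192, with the mapping-set term), and the cell wall invertase gene Zm00001eb242820 averaged 28.6 FPKM in pSC24 and 21.5 FPKM in SC (0.40, SE 0.20, adjusted p = 0.171).

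Transcripts of other pectin enzymes were also abundant in synergids, foremost those of the pectate lyases, which cut demethylesterified pectin. The 17 pectate lyase genes summed to 27487 ± 414 FPKM in pSC24 and 37361 ± 2119 FPKM in SC (SD, n = 3 each), with 2 of 7 tested genes called higher (10.3% of all genes) and 1 lower (7.57% of all genes). The most abundant one, Zm00001eb369640, averaged 22464 FPKM in SC, 17054 in pSC12, then 17576 in pSC18 and 18458 in pSC24. Polygalacturonases summed to 1262 ± 164 FPKM in pSC24 and 2063 ± 201 FPKM in SC, with 0 of 18 tested called higher and 1 lower, and pectin acetylesterases to 928 ± 118 FPKM in pSC24 and 1191 ± 161 FPKM in SC, with 1 of 3 tested called higher and 0 lower. Of all genes, 10.3% were called higher and 7.57% lower in this comparison.

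The level of the transcription factor gene ZmMYB98 (Zm00001eb212880), whose Arabidopsis counterpart controls many synergid genes, was taken beside the 4 abundant inhibitor genes. The study tested their promoters with ZmMYB98 in reporter assays in tobacco leaves and reports that it strongly induced 4 PMEI genes. In a further assay it drove synergid proteins fused to a fluorescent protein from their own promoters. The study saw their signal in tobacco leaf cells only where ZmMYB98 was expressed too. It concludes that ZmMYB98 controls the expression of the most abundant synergid genes. In the libraries ZmMYB98 averaged 1120 ± 79.0 FPKM in SC, 602 ± 40.8 in pSC12, then 430 ± 64.5 in pSC18 and 97.9 ± 70.0 in pSC24 (SD, n = 3 each), and it fell in pSC24 against SC with a log2 fold change of -3.53 (SE 0.37, adjusted p = 3.03e-05, edgeR), or -4.23 (adjusted p = 0.000668) with the mapping-set term. In the same comparison the 4 abundant inhibitor genes lay between -0.34 and -0.12. The difference between these changes was not tested, and neither ZmMYB98 protein nor the stability of the transcripts was measured here.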

How the data were processed

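Reads were cleaned by the authors (Cutadapt 1.15 followed by a script of their own), aligned to Zm-B73-REFERENCE-NAM-5.0 with HISAT2 2.0.5, and assigned to genes with featureCounts 1.5.0-p3. Counts were deposited as whole numbers, and FPKM values were deposited beside them. The FPKM of the authors equalled the counts over gene length and a library size, the DESeq2 size factor multiplied by the geometric mean total, within 0.1% for 271158 of 271158 values above 0. The strand setting and the handling of reads with several mapping places are not given in the sources used here. The tables also hold gene positions and descriptions, and 1 row was not analysed here.

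Libraries were grouped as the sample titles state. Totals were 18369408 to 20046467 counts in SC, 25959879 to 26539602 in pSC12, 15435736 to 20834163 in pSC18 and 20319633 to 25897204 in pSC24. Counts were tested with edgeR 4.0.16 (R 4.3.3, limma 3.58.1; TMM scaling, edgeR's filter on low counts, stage as the only term, all 12 libraries), with p-values adjusted within each of 5 stage comparisons over 21143 genes. The study used DESeq2, which served here as an alternative (1.42.0). Other alternatives were DESeq2 size factors or library totals as the scaling, no filter, the 6 libraries of a comparison, terms for the replicate number or the mapping set, adjustment over all 5 comparisons, and each library left out. The code was tested on simulated data. Replicates were separate cell pools; whether they came from separate plants is not given in the sources used here, so p-values measure the spread between pools. Chi-square statistics showed no library deposited again under another number. The p-value of the ratio within pairs is from an exact permutation test (scipy 1.17.1).

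Genes were described one by one where a stage mean reached 5 FPKM, where any comparison called them, or as part of the 2 abundant pairs. Of each related gene list the most abundant in SC and pSC24 were named. The genes, lists and rules were chosen with earlier results of these data known.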

Additional observations from a re-analysis of the deposited data

How the results depend on the processing

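Of 580 alternative values for 29 results on single genes, 535 kept their direction and stayed called or not called, 39 lost the call, 2 gained it and 4 changed sign. Some of the 535 still crossed the adjusted p threshold. An example is Zm00001eb304190 in pSC24 against SC, with an adjusted p of 0.0194 in the edgeR fit and 0.316 with library totals. These 29 do not cover every gene and comparison. Further calls were gained outside them, for example by Zm00001eb242990 in pSC24 against pSC18 and by Zm00001eb416650 in pSC18 against SC. Without 1 library, the range of Zm00001eb072630 in pSC24 against SC was -0.21 to 0.19. The changes of sign were Zm00001eb304180 in pSC24 against SC with library totals (0.10) and Zm00001eb072630 in the same comparison with the mapping-set term (-0.39), without SC replicate 1 (-0.05) and without pSC24 replicate 2 (-0.21). With the mapping-set term, which rests on pSC24 replicate 1, 0 inhibitor-domain genes passed as higher and 0 as lower in pSC12 against SC, 0 as lower in pSC24 against pSC18, and 1 as higher in pSC24 against SC. With library totals 1 was lower in pSC12 against SC and 1 higher in pSC24 against pSC18. In pSC24 against SC, 3 were lower with library totals and 3 with the mapping-set term. DESeq2 gave 1 higher in pSC18 against pSC12 (Zm00001eb294540), 1 higher in pSC24 against pSC18 (Zm00001eb135460) and 1 lower in pSC18 against SC (Zm00001eb416650). Joint adjustment gave 1 higher in pSC18 against pSC12 (Zm00001eb294540) and 1 lower in pSC24 against pSC18, and DESeq2 size factors gave 1 lower in pSC24 against pSC18. With 6 libraries, 1 was higher and 0 lower in pSC24 against pSC18, and 1 lower in pSC18 against SC. In pSC24 against SC the 6 libraries gave 3 higher, Zm00001eb196090 among them. Leaving out 1 library gave 0 to 1 higher and 1 to 2 lower in pSC12 against SC, 0 to 1 higher and 1 to 2 lower in pSC24 against pSC18, 0 to 1 lower in pSC18 against SC, and 1 to 2 higher and 3 to 4 lower in pSC24 against SC. The ratio of the inhibitor sum to SC was 0.744 in pSC12, 0.856 in pSC18 and 0.993 in pSC24 as a share of counts. In summed FPKM without the 4 abundant genes it was 0.811 in pSC12 and 1.15 in pSC24. Except for the settings whose construction leaves out samples or genes, the cause was not tested.

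Replicate numbers did not pair the libraries: deviations from the stage means of same-numbered libraries correlated at -0.058 to 0.091 over 18 pairs, and those of other pairs at -0.107 to 0.045. With the replicate block, 1 gene was higher and 2 lower in pSC12 against SC, and 2 higher and 4 lower in pSC24 against SC, as without it.

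Depth limits the rarely detected genes: with 3 libraries of 25 to 28 cells each, the 33 genes that were not tested allow no statement on change.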

Other observations

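The genes in front of Zm00001eb304230 on chromosome 7 and Zm00001eb242990 on chromosome 5 repeat each other. In both places a gene annotated as coatomer subunit beta'-1 spans 5386 bases on the plus strand, and inside it, on the minus strand, lie a gene without annotation that spans 403 bases and one annotated as glycerophosphocholine acyltransferase 1 that spans 334 bases. All 6 genes had 0 counts in the 12 libraries together, which does not show a lack of transcript, as these genes overlap. The coatomer gene ends 133 bases before Zm00001eb304230 and 949 bases before Zm00001eb242990. The repeat was noticed after the tables were read, and the sequences of both places were not compared here.

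In both of the genes Zm00001eb418730 and Zm00001eb294540, pSC18 replicate 3 held most of the counts of its stage, with 90 and 264 counts, against 0 and 0, and 3 and 15, in the other pSC18 libraries.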
